A study of Homo sapiens with 8 samples.

Results

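The response to TGF-β was compared between HMLE cells with and without knockdown of SOX4, as the difference of the 2 responses on a log2 scale. HMLE cells are human mammary epithelial cells that were immortalized and grow as a line. One pair of groups carried a lentiviral scrambled shRNA and the other 1 lentiviral shRNA against SOX4. All cells had been under puromycin selection (0.5 µg/mL). Each kind was sampled without TGF-β and after 16 h with it, as 2 RNA sequencing libraries in each of the 4 groups. All 8 libraries entered the comparison, across 5266 genes of the 12012 with at least 1 FPKM (a read number divided by transcript length and library depth) in at least 2 libraries. These are the genes with 1 transcript in the table whose lost decimal marks could be restored. A single shRNA was used. Nothing in the labels states whether paired libraries stem from different cultures, so each p-value reflects the spread between these samples alone, and that spread may be technical.

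TGF-β signals through a pair of serine/threonine kinase receptors that phosphorylate SMAD2 and SMAD3, which enter the nucleus with SMAD4 and act on target genes. In mammary epithelial cells it induces matrix and protease genes and, over days, an epithelial-mesenchymal transition (EMT), the loss of epithelial junctions and gain of mesenchymal genes. SOX4 is a SoxC family transcription factor that is itself induced by TGF-β in such cells. A positive difference means that TGF-β raised a gene more, or lowered it less, in SOX4-shRNA cells.

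SOX4 had 8.74 and 8.04 FPKM in untreated scrambled-shRNA cells and 18.7 and 17.6 FPKM with TGF-β. In SOX4-shRNA cells it had 0.923 and 1.02 FPKM untreated and 2.37 and 1.88 FPKM with TGF-β. The knockdown libraries were thus lower than every scrambled-shRNA library in both conditions, and SOX4 was still higher with TGF-β than without it in both kinds of cells. Its response was 1.03 log2 in scrambled-shRNA cells and 0.66 in SOX4-shRNA cells, a difference of -0.37 ± 0.18 (SE) with a 95% interval of -0.78 to 0.04, which did not pass the test (limma adjusted p = 0.994). This difference comes with the added 1 FPKM: it was -0.06 with a pseudocount of 0.1 FPKM and 0.00 by voom on the whole reads. An annotated gene on the other strand overlaps SOX4 exons, and how the counting treated strand is not given in the sources used here.

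By their scale the libraries held between 12.6 M and 16.8 M reads. The median gene with whole reads had 347 to 463 reads per library. Replicates differed by more than counting noise, with a chi-square per gene of 3.06 to 8.92 in the scrambled-shRNA groups and 19.4 to 21.9 in the SOX4-shRNA groups. The fit used 1 spread for all 4. In the list of basal epithelial markers 3 of 6 could be read, and KRT5, KRT14 and TP63 could not. CDH3 (P-cadherin), KRT15 and EPCAM, a general epithelial marker, were all above 1 FPKM in every library. They summed to 171 to 234 FPKM, with EPCAM at 55.8 to 114 FPKM, so the sum does not by itself show basal identity. Of the endothelial, leukocyte and luminal markers that could be read, 4 of 6, 1 of 6 and 1 of 8, none reached 1 FPKM in more than 1 library, and several defining markers, such as PTPRC, ESR1 and CDH5, were not read. The 4 of 8 fibroblast markers read summed to 4.98 to 6.25 FPKM in scrambled-shRNA and 1.6 to 3.03 FPKM in SOX4-shRNA libraries. COL3A1 was the largest part. PDGFRB had 1.12 to 2.18 FPKM in scrambled-shRNA and 0.514 to 1.06 FPKM in SOX4-shRNA libraries, and LUM and PDGFRA had at most 0.105 FPKM. In bulk RNA, fewer cells of a type and less RNA per cell cannot be told apart.

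Across the genes tested the responses of the 2 kinds of cells were centred on each other. The median difference was 0.00 log2, and the 5th and 95th percentiles were -0.33 and 0.41. Only 2 of 5266 genes (0.038%) passed a limma adjusted p of 0.05, both with a larger response in SOX4-shRNA cells, and TGFBI was one of them. No gene passed with a smaller response (0%), nor by voom on the whole reads, while 1 (SULT1E1) did with a crossed replicate block (replicate numbers swapped between untreated and treated groups), an alternative added after seeing the data. At an unadjusted limma p under 0.05 there were 98 genes (1.86%) with a larger and 61 (1.16%) with a smaller response, 159 in all (3.02%). That total rested on single libraries: it was 402 without the first untreated SOX4-shRNA library and 347 without the first with TGF-β. It was 89 to 102 without the first untreated scrambled-shRNA library, either scrambled-shRNA library with TGF-β or the second untreated SOX4-shRNA library. The depth and spread left a median half-width of 0.48 log2 on the 95% interval, and for 4640 genes (88.1%) that interval lay within 1 log2 unit of 0 on both sides. On the scale of FPKM plus 1, a difference of 2-fold or more in either direction was therefore outside the interval for most genes. The restoration of lost marks gave more weight to readings with a small difference of the responses and close replicates. The centre, range and intervals thus hold for the readings used and are not independent of that weighting.

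**Figure D1:**
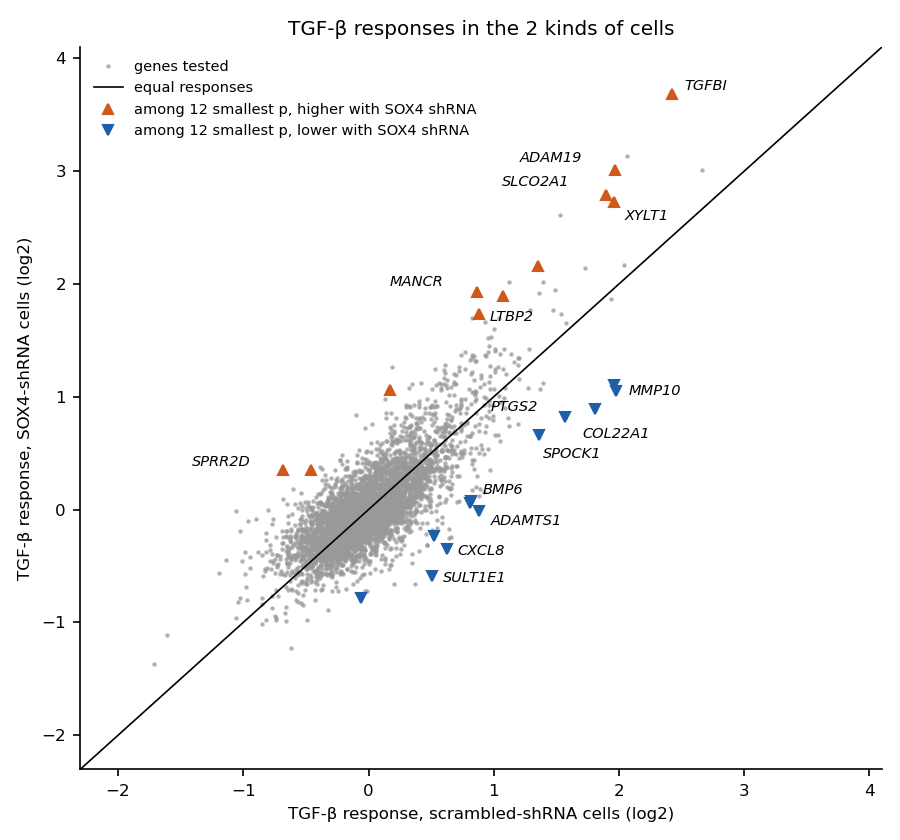
Response to TGF-β of 5265 of the 5266 genes tested (log2 of FPKM plus 1, mean of the TGF-β libraries minus mean of the untreated ones) in scrambled-shRNA cells (horizontal) and SOX4-shRNA cells (vertical). Orange triangles are plotted genes among the 12 with the smallest p and a larger response with SOX4 shRNA and blue triangles those with a smaller one; most genes lie along the line of equal responses, and TGFBI sits above it, at 2.42 on the horizontal and 3.68 on the vertical axis.

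TGFBI encodes a secreted matrix protein that binds collagens and integrins and is named for its induction by TGF-β (chromosome 5, 135364677 to 135399507, plus strand, hg19). It had 179 and 195 FPKM in untreated scrambled-shRNA cells and 999 and 1009 FPKM with TGF-β, a 5.34-fold rise. SOX4-shRNA cells had 82.2 FPKM in both untreated libraries and 1023 and 1112 FPKM with TGF-β, a 12.8-fold rise. With TGF-β the 2 kinds of cells thus reached nearly the same level, from a lower start in SOX4-shRNA cells, and both responses passed the test (limma adjusted p = 1.8e-05 and 5.8e-07). The responses of 2.42 and 3.68 log2 differed by 1.26 ± 0.13 (SE; 95% interval 0.96 to 1.57; limma adjusted p = 0.0249). Each of the 4 pairings of a treated with an untreated SOX4-shRNA library gave 3.62 to 3.74 log2, above the 2.35 to 2.49 log2 of the scrambled-shRNA pairings. The mean rose by 817 FPKM in scrambled-shRNA cells and by 985 FPKM in SOX4-shRNA cells.

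The TGFBI call rests on 1 of several possible readings of its untreated SOX4-shRNA values, which had lost their decimal marks. In the most likely other reading those 2 cells are 10 times higher, and the difference would be -2.04. The posterior of the reading used was 0.995. It comes from the weighting that favours small differences, so it is not independent support for the call. Leaving out any 1 of the 4 scrambled-shRNA libraries, either untreated SOX4-shRNA library or the second with TGF-β ended the call, with limma adjusted p of 0.0593 to 0.496 and differences of 1.20 to 1.33. Without the first SOX4-shRNA library with TGF-β the adjusted p was 0.0491. The call was also lost with no filter on low values (limma adjusted p = 0.335), without the intensity trend (0.104), with the replicate number as a block (0.166), over all kept genes (0.153) and at a posterior of at least 0.99 (0.0502), at the same difference.

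**Figure D2:**
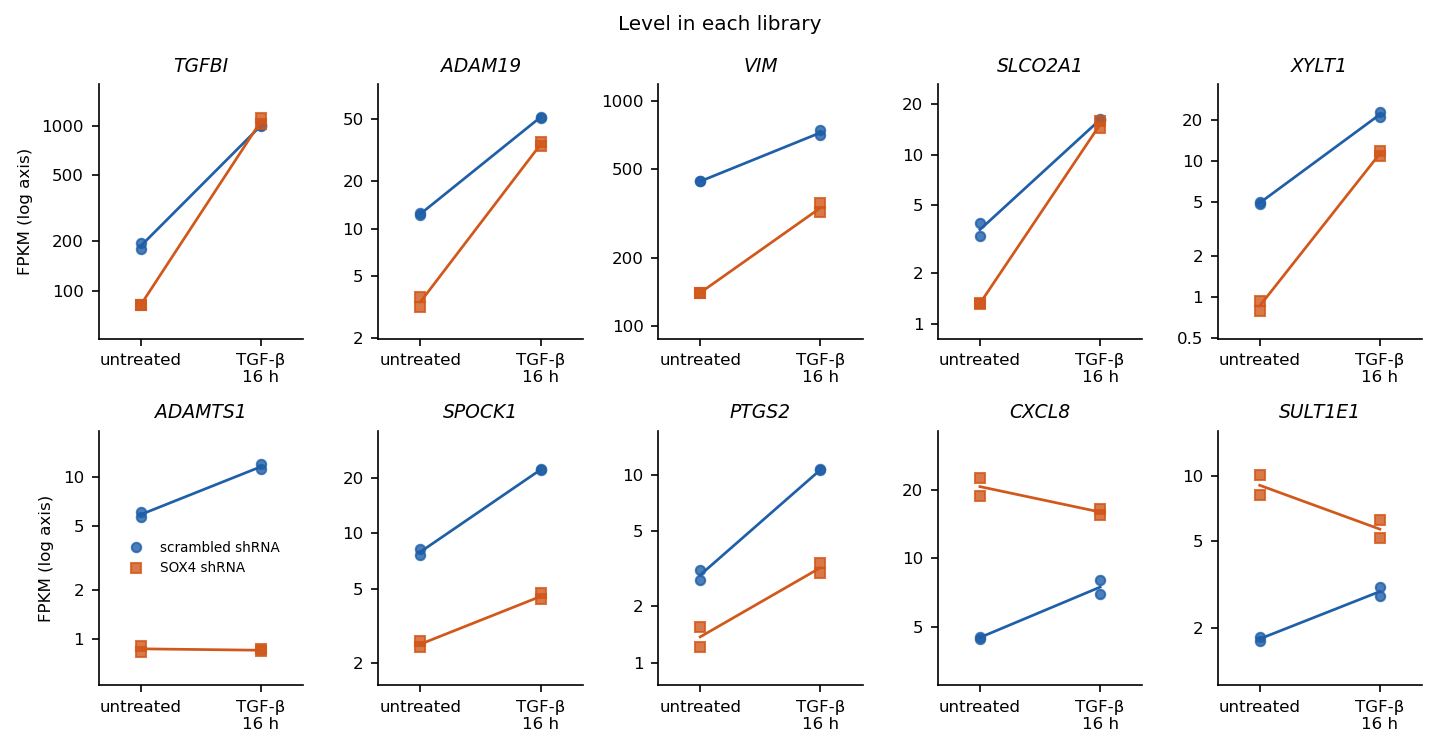
Level of 10 genes in each of the 8 libraries (points, FPKM on a log axis), untreated and after 16 h of TGF-β, with lines joining the geometric means of each kind of cell. In the upper row the SOX4-shRNA line starts lower and rises more steeply, TGFBI from 82.2 FPKM in both libraries to 1023 and 1112 FPKM; in the lower row it is flatter or falls, as for ADAMTS1, which stayed between 0.826 and 0.906 FPKM.

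The genes next in order on the side of a larger response did not pass the test. ADAM19, a membrane metalloprotease-disintegrin, had 12.6 and 12.2 FPKM and then 51.0 and 51.8 FPKM in scrambled-shRNA cells, and 3.65 and 3.18 FPKM and then 33.4 and 35.6 FPKM in SOX4-shRNA cells. Its groups did not overlap in either condition, and the difference of responses was 1.04 ± 0.16 (limma adjusted p = 0.239), with CYFIP2 on the other strand overlapping its exons. SLCO2A1, a prostaglandin transporter, went from 3.94 and 3.29 to 16.0 and 16.2 FPKM in scrambled-shRNA cells and from 1.31 and 1.33 to 14.4 and 15.8 FPKM in SOX4-shRNA cells. As with TGFBI, the lower start ended at nearly the same level, and the difference was 0.90 ± 0.17 (limma adjusted p = 0.434). XYLT1, the xylosyltransferase that starts proteoglycan chains, went from 4.84 and 5.04 to 22.9 and 21.3 FPKM and, with SOX4 shRNA, from 0.937 and 0.797 to 10.9 and 11.9 FPKM. Its difference was 0.77 ± 0.16 on the log2(FPKM + 1) scale, which compresses values below 1. By voom on the whole reads it was 1.56 and passed the test (limma adjusted p = 0.0297), as did ADAM19 at 1.29 (0.0297). The larger responses of ADAM19 and XYLT1 are relative. In FPKM they rose by less in SOX4-shRNA than in scrambled-shRNA cells (by 31.1 against 39 and 10.6 against 17.2). SLCO2A1 rose by 13.8 against 12.5 FPKM.

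Other positive differences came with different levels. LTBP2, a latent TGF-β binding protein of the matrix, had SOX4-shRNA levels near the scrambled-shRNA levels without TGF-β and above them with it. UCA1, a long noncoding RNA, was lower with SOX4 shRNA when untreated and higher with TGF-β (knockdown differences of -0.37 and 0.44 log2). LTBP2 had 7.24 and 6.96 against 6.79 and 5.79 FPKM untreated, and 14.1 and 13.7 against 21.9 and 24.3 FPKM with TGF-β, a difference of 0.84 ± 0.17. UCA1 had 11.3 and 10.4 against 8.28 and 8.0 FPKM untreated and 30.7 and 27.6 against 38 and 41.8 FPKM with TGF-β, a difference of 0.81 ± 0.16, and the adjusted p of both was 0.477 (limma). MANCR, another long noncoding RNA, was lower with SOX4 shRNA throughout, at 9.90 and 12.2 rising to 21.4 and 20.5 FPKM against 2.35 and 2.81 rising to 11.3 and 14.0 FPKM (difference 1.06 ± 0.21). SPRR2D, a cornified envelope protein with near-identical family copies whose reads may be split, had a response of -0.68 in scrambled-shRNA and 0.35 in SOX4-shRNA cells. PFN4 rested on 4 to 11 reads a library, and FOXL1 and ADAMTS15 on levels of at most 5.13 FPKM.

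Among genes with a smaller response in SOX4-shRNA cells none passed the limma test, and 61 had an unadjusted p under 0.05. ADAMTS1, a secreted metalloprotease of the matrix, had 5.66 and 6.10 FPKM untreated and 12.1 and 11.2 FPKM with TGF-β in scrambled-shRNA cells, against 0.906 and 0.826 FPKM untreated and 0.836 and 0.860 FPKM with TGF-β in SOX4-shRNA cells. The SOX4-shRNA libraries were all lower and did not separate by treatment. The response passed the test in scrambled-shRNA cells (limma adjusted p = 0.0052) and not in SOX4-shRNA cells (0.963). The responses of 0.88 and -0.01 log2 differed by -0.89 ± 0.16 (95% interval -1.27 to -0.52; limma adjusted p = 0.434). SPOCK1, a matrix proteoglycan, had 7.64 and 8.30 FPKM and then 22.3 and 21.9 FPKM in scrambled-shRNA cells and 2.44 and 2.63 FPKM and then 4.75 and 4.42 FPKM in SOX4-shRNA cells (difference -0.71 ± 0.16). PTGS2, the inducible cyclooxygenase that makes prostaglandin precursors, had 2.76 and 3.12 FPKM and then 10.7 and 10.6 FPKM, against 1.22 and 1.55 FPKM and then 3.02 and 3.41 FPKM (difference -0.74 ± 0.18). Both were lower with SOX4 shRNA in either condition, with the wider gap under TGF-β.

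BMP6 (a BMP ligand), HAS2 (a hyaluronan synthase), LBH (a transcriptional cofactor), MMP10 (stromelysin-2) and COL22A1 (a collagen of tissue junctions) showed the same order at low levels. Their differences were -0.75, -0.74, -0.86, -0.93 and -0.92, and their highest SOX4-shRNA value was 2.02 FPKM, in LBH. For COL22A1 the untreated SOX4-shRNA libraries had 0.105 and 0.0315 FPKM, and those of MMP10 had 0.0462 and 0.290 FPKM. These were 9 and 3 reads for COL22A1 and 1 and 7 reads for MMP10. Voom on the whole reads adds a fraction of a read in place of 1 FPKM. On that scale the differences turned to 0.91 for COL22A1 and 0.18 for MMP10 (limma adjusted p = 0.983 and 0.989). Their direction thus depends on how low values are treated. The same scale moved LBH to -0.29 and BMP6 to -1.27.

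CXCL8 and SULT1E1 had a different order, being higher with SOX4 shRNA. CXCL8, the chemokine interleukin-8, had 4.44 and 4.53 FPKM untreated and 6.98 and 7.99 FPKM with TGF-β in scrambled-shRNA cells, against 18.8 and 22.6 FPKM untreated and 16.5 and 15.4 FPKM with TGF-β in SOX4-shRNA cells. TGF-β libraries were thus the higher ones in scrambled-shRNA cells and the lower ones in SOX4-shRNA cells. The responses were 0.63 (limma adjusted p = 0.0254) and -0.35 log2 (0.135), with a difference that did not pass (-0.98 ± 0.18; limma adjusted p = 0.434). SULT1E1, the estrogen sulfotransferase, had 1.74 and 1.81 FPKM and then 3.07 and 2.81 FPKM, against 8.16 and 10.1 FPKM and then 6.26 and 5.18 FPKM. It had the most negative difference of all genes tested, -1.10 ± 0.20 (95% interval -1.56 to -0.64; limma adjusted p = 0.434, and 0.0407 with the crossed replicate block). CYP1B1, a cytochrome P450 induced by the aryl hydrocarbon receptor, and SLC7A11, the cystine transporter, had differences of -0.72 and -0.53. Both were also higher with SOX4 shRNA when untreated. Annotated genes on the same strand overlap exons of SULT1E1 and of CYP1B1.

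**Figure D3:**
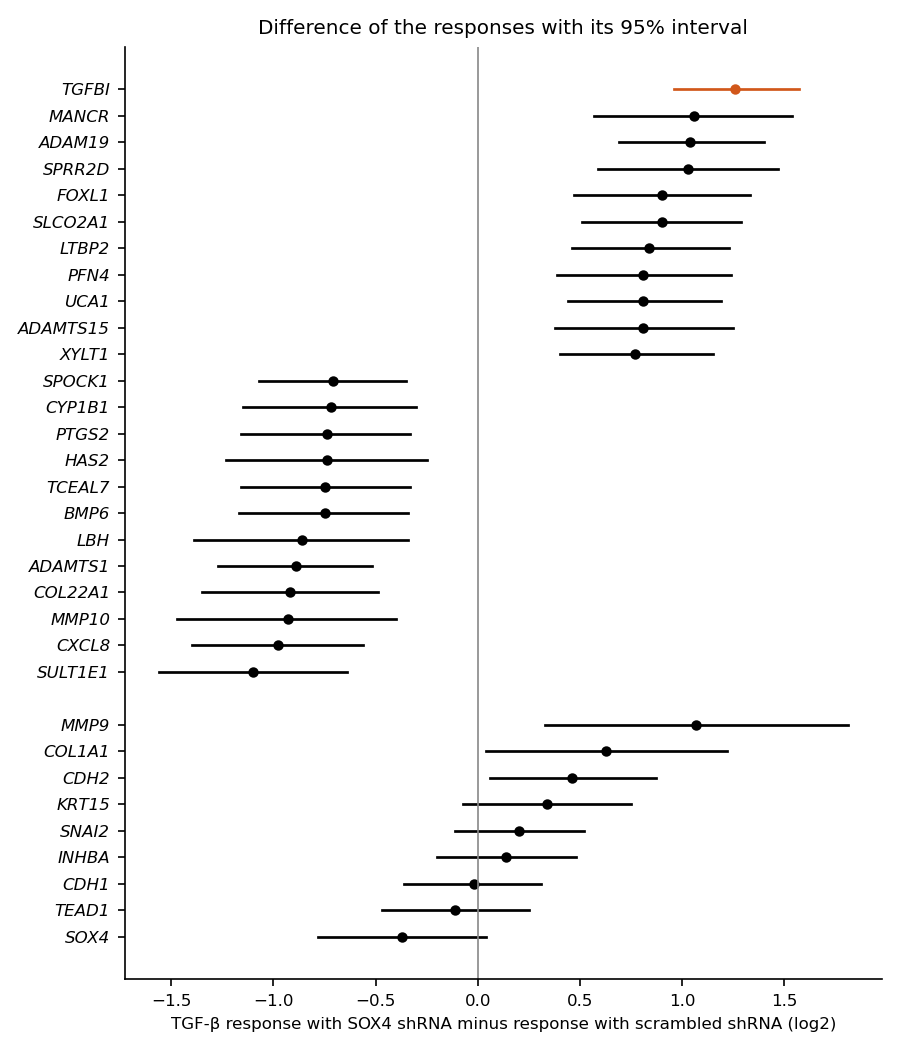
Difference of the TGF-β responses (log2, SOX4-shRNA minus scrambled-shRNA cells) with its 95% limma interval, for genes among the 12 with the smallest p in each direction and for 9 genes quoted whatever their values. TGFBI, which passed the test, is in orange at 1.26; the intervals of CDH1, SNAI2, INHBA, TEAD1, KRT15 and SOX4 include 0.

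The 98 genes with a positive difference at an unadjusted p under 0.05 had a median response of 0.32 log2 in scrambled-shRNA and 0.92 in SOX4-shRNA cells. Of them 66 had responses above 0 in both kinds of cells, 24 were below 0 in scrambled-shRNA and above 0 in SOX4-shRNA cells, and 8 were below 0 in both (67.3%, 24.5% and 8.16%, beside 32.5%, 11% and 43.9% of all genes tested). The SOX4-shRNA mean was the lower one in untreated cells for 87 of the 98 (88.8%, beside 50.4% of all genes), and under TGF-β for 36 (36.7%, beside 47.4%). Since the difference of the responses equals the knockdown difference with TGF-β minus that without it, a lower untreated level and opposite signs of the responses are part of how such genes were selected. The 61 with a negative difference had median responses of 0.47 and -0.23 log2, and 34 of them (55.7%, beside 12.6% of all genes) were above 0 in scrambled-shRNA and below 0 in SOX4-shRNA cells. All pairings of libraries separated the responses for 340 genes upward (6.46%) and 342 downward (6.49%). The reported genes among the 12 with the smallest p in each direction were among them. They were selected on these same values, so their separation is no further support.

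Promoter sequences are shown for 3 of the genes above, 250 bases before to 50 after the annotated start, from RefSeq (GRCh38.p14), to set the letters beside the 2 directions of difference. Capitals mark matches to a SMAD element (CAGAC), an AP-1 site (TGACTCA) or a SOX core (ACAAAG), searched on both strands; the motifs do not overlap each other in these windows. TGFBI lies at chr5:136028738-136029037 on the plus strand, ADAM19 at chr5:157575726-157576025 on the minus strand and CXCL8 at chr4:73740319-73740618 on the plus strand.
TGFBI: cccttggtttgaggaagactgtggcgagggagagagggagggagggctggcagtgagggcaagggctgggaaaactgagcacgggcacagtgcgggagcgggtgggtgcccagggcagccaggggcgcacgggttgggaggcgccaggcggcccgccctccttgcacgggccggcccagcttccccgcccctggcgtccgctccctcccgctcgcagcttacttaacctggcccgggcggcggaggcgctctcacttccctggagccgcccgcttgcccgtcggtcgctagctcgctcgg
ADAM19: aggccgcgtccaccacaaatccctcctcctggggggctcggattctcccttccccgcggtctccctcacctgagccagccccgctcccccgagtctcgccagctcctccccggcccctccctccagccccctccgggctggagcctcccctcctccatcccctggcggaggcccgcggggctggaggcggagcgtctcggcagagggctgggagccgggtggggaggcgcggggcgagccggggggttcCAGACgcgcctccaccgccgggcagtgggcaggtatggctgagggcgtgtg
CXCL8: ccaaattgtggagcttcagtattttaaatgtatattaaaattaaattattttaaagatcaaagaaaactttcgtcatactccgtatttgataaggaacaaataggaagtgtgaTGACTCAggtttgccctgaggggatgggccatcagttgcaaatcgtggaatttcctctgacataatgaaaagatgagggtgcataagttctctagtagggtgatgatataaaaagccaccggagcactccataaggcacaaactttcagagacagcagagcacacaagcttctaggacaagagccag
The ADAM19 window held 1 SMAD element and the CXCL8 window 1 AP-1 site, and the TGFBI window held none of the 3 motifs. Of 35116 promoters of this length in the table, 45.3% held the SMAD element, 4.95% the AP-1 site and 16.1% the SOX core, so a match in one window is a description of the letters and not of binding.

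The gene lists below are described by their counts and medians beside those of all genes tested, of which 1.86% were positive and 1.16% negative at an unadjusted p under 0.05. They were chosen with earlier results of these data known, so that their direction is not independent evidence. Some genes, such as TGFBI, ADAM19, COL1A1, MMP9 and MMP14, count in more than 1 list, so the lists are not separate from each other. Of 39 TGF-β and SMAD target genes, 13 were tested. TGFBI passed the limma test, ADAM19 and LTBP2 had an unadjusted p under 0.05, and 12 of 13 differences were above 0, with a median of 0.38 beside 0.00 over all genes. The median response of these 13 was 0.82 log2 in scrambled-shRNA and 1.20 in SOX4-shRNA cells, and their median knockdown difference was -0.27 untreated and 0.09 with TGF-β. The responses of some members were close: INHBA, the activin A subunit, had 28.3 and 26.8 FPKM and then 62.3 and 67.1 FPKM, against 21.3 and 20.1 FPKM and then 54.5 and 53.3 FPKM. Its difference of 0.14 had an interval of -0.20 to 0.48, which leaves out a 2-fold difference in either direction. CCN2 (connective tissue growth factor) was the member below 0, at -0.15 (named after its value was seen).

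Mesenchymal markers had 12 of 20 members tested, none called, with 6 positive and 0 negative at an unadjusted p under 0.05 and a median of 0.39. VIM, the intermediate filament vimentin, had 440 FPKM in both untreated scrambled-shRNA libraries and 744 and 708 FPKM with TGF-β. In SOX4-shRNA cells it had 140 FPKM in both untreated libraries and 351 and 320 FPKM with TGF-β. All SOX4-shRNA libraries were below all scrambled-shRNA libraries, and the difference of responses was 0.54 ± 0.13 (limma adjusted p = 0.818; 0.88 after quantile normalization, with 0.365), with VIM-AS1 overlapping on the other strand. CDH2 (N-cadherin) had 8.40 and 8.54 FPKM and then 26.4 and 24.6 FPKM, against 1.76 and 2.27 FPKM and then 11.1 and 10.1 FPKM (difference 0.46 ± 0.18, and 0.80 by voom on the whole reads). COL1A1 (difference 0.63 ± 0.26) had 73.7 and 67.2 FPKM and then 110 and 127 FPKM, against 12.8 and 9.42 FPKM and then 25.9 and 34.8 FPKM. VIM, CDH2 and COL1A1 were thus lower with SOX4 shRNA under both conditions, and in FPKM they rose by less in SOX4-shRNA than in scrambled-shRNA cells (by 196 against 286, 8.61 against 17.1 and 19.2 against 48.3 FPKM). MMP9 (gelatinase B) had 4.47 and 4.19 FPKM and then 20.9 and 21.5 FPKM, against 3.61 and 2.05 FPKM and then 26.0 and 38.9 FPKM, with a wide interval on its difference of 1.07 (0.33 to 1.81).

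Collagens had 12 of 24 members tested, 5 positive and 1 negative at an unadjusted p under 0.05, and a median of 0.41. COL4A1, a basement membrane chain, had 64.1 and 67.4 FPKM and then 132 and 129 FPKM, against 52.1 and 48.8 FPKM and then 149 and 145 FPKM (difference 0.55 ± 0.14). COL3A1 and COL1A1 were the other named members on the positive side, at 0.62 and 0.63, and COL22A1 was the negative one. By voom on the whole reads 6 were positive and 0 negative, with COL3A1 at 1.04. Metalloproteases and their inhibitors were split, with 6 positive and 2 negative of 15 tested. ADAM19, MMP9, ADAMTS15 and MMP14 were among the positive and MMP10 and ADAMTS1 were the negative, and the median was 0.24. By voom on the whole reads 6 were positive and 1, ADAMTS1, negative. Among the other matrix proteins, where 20 of 43 were tested, 3 were positive and 2 negative (SPOCK1 and HAS2, of which SPOCK1 alone by voom) and the median was -0.01.

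Keratins had 5 of 15 members tested, all with differences above 0 (median 0.55) and 3 at an unadjusted p under 0.05. KRT6B and KRT16, keratins of activated keratinocytes, had differences of 0.61 and 0.55, and both have near-identical copies among which reads may be split. KRT15, a basal keratin, fell with TGF-β from 65.4 and 72.2 to 19.4 and 21.2 FPKM in scrambled-shRNA cells and from 12.6 and 14.7 to 4.41 and 4.87 FPKM in SOX4-shRNA cells. The 2 responses of -1.71 and -1.37 log2 differed by 0.34, with an interval of -0.07 to 0.75 (0.21 by voom). Epithelial junction and identity genes, 16 of 35 tested, had a median of 0.02, with 1 positive (OVOL1, a transcription factor of epithelial cells, at 0.73) and 0 negative. CDH1 (E-cadherin) had 74.1 and 77.8 FPKM and then 90.6 and 90.7 FPKM, against 78.0 and 76.1 FPKM and then 95.4 and 85.7 FPKM. Its groups overlapped between the 2 kinds of cells, and the difference of -0.02 had an interval of -0.36 to 0.31. Of the EMT transcription factors 6 of 18 were tested, none with an unadjusted p under 0.05 in either direction, at a median of 0.06. SNAI2 (Slug) had 90.3 FPKM in both untreated scrambled-shRNA libraries and 172 and 163 FPKM with TGF-β, against 77.2 and 83.1 FPKM and then 175 and 168 FPKM (difference 0.20, interval -0.11 to 0.52).

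**Figure D4:**
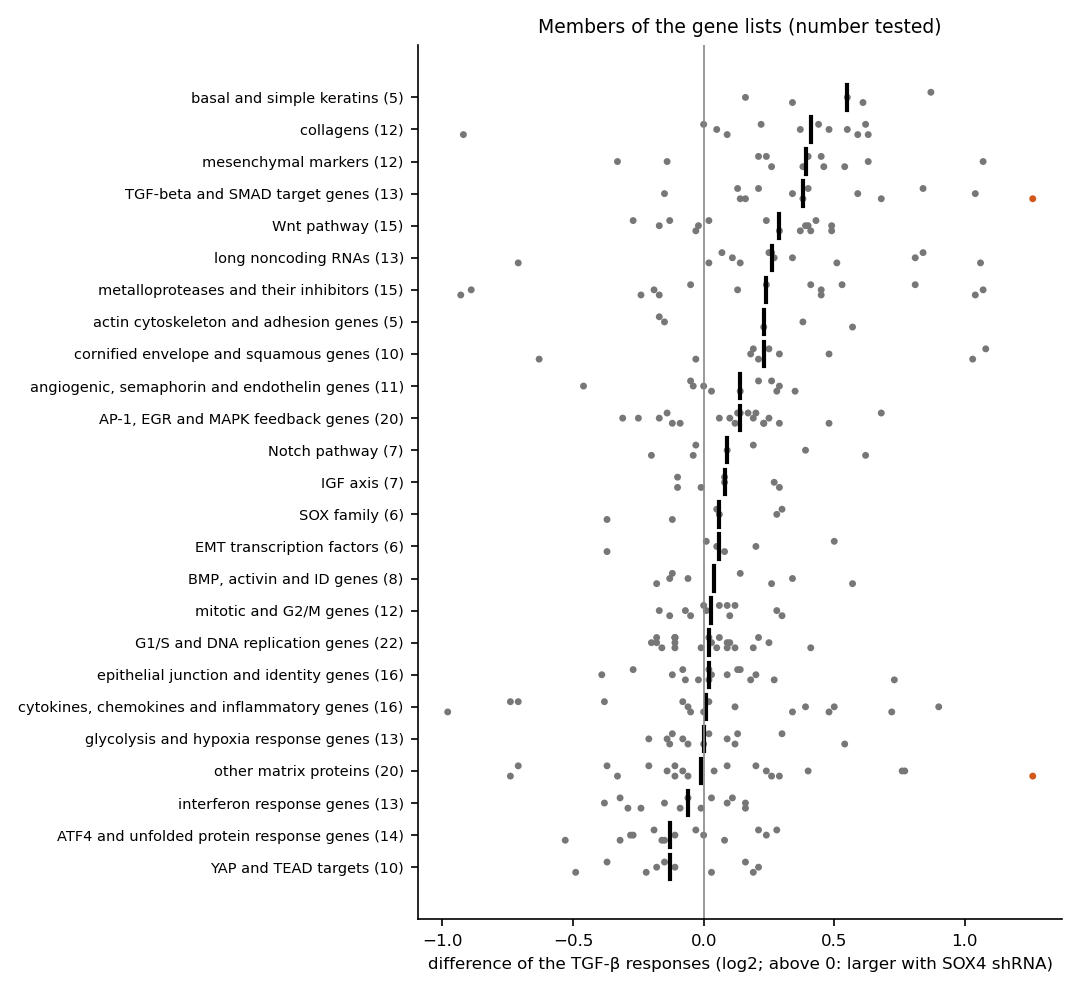
Difference of the TGF-β responses (log2) of each tested member of the 25 gene lists with at least 5 tested members; the black bar is the list's median, and the number tested stands beside the name. TGFBI, which passed the test, is orange. The medians run from -0.13, for YAP and TEAD targets and for ATF4 and unfolded protein response genes, to 0.55 for keratins.

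Cytokine and inflammatory genes went both ways, with 3 positive and 2 negative of 16 tested and a median of 0.01. SLCO2A1 was on the positive side, and CXCL8 and PTGS2 were the negative members. Long noncoding RNAs had 4 positive and 0 negative of 13, among them MANCR, UCA1 and LINC01133. The cell cycle genes had no member at an unadjusted p under 0.05 in either direction, with medians of 0.02 for 22 G1/S and replication genes and 0.03 for 12 mitotic genes, and the intervals of 20 and 12 of these lay within 1 log2 unit of 0. Their responses were -0.32 and -0.34 log2 (G1/S) and -0.40 and -0.33 log2 (mitotic) in the 2 kinds of cells. Interferon response genes (13 tested), Wnt pathway genes (15), YAP and TEAD targets (10), AP-1 and MAPK feedback genes (20) and BMP, activin and ID genes (8) likewise had none, with medians of -0.06, 0.29, -0.13, 0.14 and 0.04. TEAD1 differed by -0.11 (interval -0.47 to 0.25).

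Other genes chosen to be quoted whatever their values, SMAD7, SKIL, PMEPA1, FN1, ZEB1, ID1, TGFBR2, SMAD3, TGFB2 and EZH2, have 2 to 6 transcripts in the table and were not tested. In the fit of all kept genes, where 1 transcript stands for a gene and marks were restored by likeness of the libraries, 6 of them could be read, with differences from -0.30 (TGFB2) to 0.64 (ID1) and limma adjusted p of 0.999.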

How the data were processed

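RNA of 8 HMLE libraries was measured by 75-nt single reads. Per the labels' protocols the kit was stranded and depleted ribosomal RNA, while another label names polyA RNA. The submitters' processing notes name the hg19 build, Cuffdiff, Cufflinks 2.2.1 and TopHat2 2.0.9. The deposited values of 48175 RefSeq transcripts were taken as FPKM, and 34.1% of cells had lost their decimal mark (up to 3 readings a factor of 10 apart). Cells in damaged exponent notation (13.9%) were set to 0. All 8 columns of values were used.

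Of 5908 kept genes with 1 transcript, 5272 (89.2%) gave whole reads in at least 7 of 8 cells, to within 0.003 reads and the rounding error of the deposited FPKM. Readings were weighed by level, effect size and replicate spread (posterior of at least 0.95), which left 5266 genes. Of 9523 pairs of replicate cells with a lower reading possible, 87 (0.91%) had both read numbers divisible by 10. Both restoration and test were also run on simulated data. These had independent noise, with no difference in spread set between the groups. They are therefore no check of the unequal spreads and correlated replicate differences of these libraries.

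The test was made on log2 values of the deposited FPKM plus 1, by limma 3.58.1 under R 4.3.3 (4 group means, empirical Bayes with an intensity trend, Benjamini-Hochberg over all 5266 genes, call at an adjusted p under 0.05). The added 1 FPKM understates each response of low genes. Where 1 kind of cell had the lower level, it also shifted the difference of the responses, as for COL22A1 (-0.92, and 0.91 by voom). Named were called genes, the 12 smallest p in each direction, up to 3 members of each list with at least 5 tested members, and genes quoted whatever their values; 1 gene that passed the test entered the fits and the counts over all genes but is not reported here, in the lists or in the figures. The members and lists were chosen with earlier results of these data known. Symbols were matched by RefSeq identifier for 47097 transcripts (97.76%). Gene coordinates are from GENCODE 44 on GRCh37.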

Additional observations from a re-analysis of the deposited data

Results flagged for a closer look

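The difference of the TGF-β responses itself passed the limma test for TGFBI, at 1.26 log2. The most likely other reading of its lost decimal marks would turn the difference to the opposite sign.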

How the results depend on the processing

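The 2 calls were kept, as a count, with a pseudocount of 0.1 or 0.5 FPKM, a filter of 5 FPKM, median scaling, quantile normalization and robust empirical Bayes. The count was 0 without any filter, without the intensity trend, over all kept genes, at a posterior of at least 0.99 (TGFBI then had a limma adjusted p of 0.0502) and with the replicate number as a block, and 4 by voom on the whole reads. Leaving out 1 library at a time gave 0 to 2 calls, and the library left alone in its group was then assumed to vary like the others. The replicate numbers share no stated origin: across genes the replicate differences of the groups correlated at 0.376 and 0.567 within a condition and at -0.655 to -0.249 between untreated and treated groups. Of the alternatives added after seeing the data, a block with the numbers crossed between untreated and treated groups gave 4 calls (3 with a larger and 1 with a smaller response, among them ADAM19 at a limma adjusted p of 0.0133 and SULT1E1 at 0.0407) and 464 genes at an unadjusted p under 0.05 in place of 159, and genes with 8 of 8 whole cells gave 2. With the called genes at their most likely other reading the difference was -2.04 for TGFBI. By voom COL22A1 turned to 0.91 and MMP10 to 0.18. Leaving out 1 library moved CDH1 between -0.10 and 0.05 (0.01 without the first untreated scrambled-shRNA library) and SOX15 between -0.02 and 0.62. The cause was not tested. The depth limits genes such as PFN4, with 4 to 11 reads a library.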
